A study of Homo sapiens with 6 samples.

Results

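The genes described here are 10 components of TGF-beta and BMP signalling, taken by name from the 58735 genes of the deposited expression table: the receptors TGFBR1 and TGFBR2, the signal-carrying SMAD2, SMAD3 and SMAD4, the inhibitory SMAD6 and SMAD7, and the target genes ID1, ID2 and ID3. RNA sequencing was used to ask which genes differ in RKO, a line established from a human colorectal carcinoma, when the long non-coding RNA LOC101927668 is overexpressed. The LOC_OE group (3 libraries) came from cells carrying the full-length transcript in a lentiviral plenti6 construct under puromycin selection, and the Vector group (3 libraries) from the matching control cells. Both groups were stable lines on the same RKO background, grown in the same serum-containing medium, and whether each line is 1 clone is not given in the sources used here. The study describes the replicates as biological without saying whether they were separately transduced, so p-values measure the spread between these libraries only.

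TGF-beta and activin ligands assemble type II and type I receptors such as TGFBR2 and TGFBR1, which phosphorylate SMAD2 and SMAD3. These join SMAD4 and enter the nucleus, while BMP ligands use other receptors and the SMAD1, SMAD5 and SMAD9 branch with the same SMAD4. SMAD6 and SMAD7 are induced by the signal and shut it down, and ID1, ID2 and ID3 are classical BMP-induced genes whose proteins lack a DNA-binding region and hold basic helix-loop-helix factors away from DNA. RKO belongs to the mismatch-repair-deficient colorectal lines, in which a coding repeat of TGFBR2 is commonly shortened, and RNA levels do not report whether a receptor protein is functional.

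In the genome (GRCh38, GENCODE release 29) the receptor genes were TGFBR1 (ENSG00000106799) at chr9:99104038-99154192 on the plus strand and TGFBR2 (ENSG00000163513) at chr3:30606502-30694142 on the plus strand. The signal-carrying genes were SMAD2 (ENSG00000175387) at chr18:47808957-47931146 on the minus strand, SMAD3 (ENSG00000166949) at chr15:67063763-67195195 on the plus strand and SMAD4 (ENSG00000141646) at chr18:51028394-51085045 on the plus strand. The inhibitory genes were SMAD6 (ENSG00000137834) at chr15:66702228-66782848 on the plus strand and SMAD7 (ENSG00000101665) at chr18:48919853-48952052 on the minus strand. The target genes were ID1 (ENSG00000125968) at chr20:31605283-31606515 on the plus strand, ID2 (ENSG00000115738) at chr2:8678845-8684453 on the plus strand and ID3 (ENSG00000117318) at chr1:23557918-23559794 on the minus strand. Genes overlapping a member on either strand had at most 15 reads over the 6 libraries, in the SMAD2 interval. In the least read of the overlapped target genes, ID2, the antisense gene ID2-AS1 had 12 reads against 177 for ID2. Whether counting used strand is not given in the sources used here, so this small share cannot be assigned.

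The upstream sequences of the 3 ID genes are shown because these related targets did not follow the same pattern in the libraries. Each is the 250 bases before the RefSeq start (GRCh38.p14), for ID1 at chr20:31605039-31605288 on the plus strand, for ID2 at chr2:8681806-8682055 on the plus strand and for ID3 at chr1:23559502-23559751 on the minus strand. Capitals mark matches of the letters searched, read on either strand so that the reverse complement counts too. The SMAD box was searched as CAGAC. A first GC-rich element known from BMP-responsive genes was searched as GGCGCC. A related element from the same kind of genes was searched as GGAGCC. The E-box was searched in its common form CAGCTG and also in the form bound by the MYC family of factors, CACGTG.
ID1: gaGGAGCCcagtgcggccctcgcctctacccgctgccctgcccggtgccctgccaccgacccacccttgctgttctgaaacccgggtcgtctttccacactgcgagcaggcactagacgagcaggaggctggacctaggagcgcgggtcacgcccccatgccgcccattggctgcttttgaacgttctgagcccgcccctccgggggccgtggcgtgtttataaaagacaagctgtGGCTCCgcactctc
ID2: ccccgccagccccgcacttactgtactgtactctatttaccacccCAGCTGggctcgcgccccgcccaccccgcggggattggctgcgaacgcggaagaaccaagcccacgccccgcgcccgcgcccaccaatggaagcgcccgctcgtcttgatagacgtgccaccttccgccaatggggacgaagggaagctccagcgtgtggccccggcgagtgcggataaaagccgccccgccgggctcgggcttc
ID3: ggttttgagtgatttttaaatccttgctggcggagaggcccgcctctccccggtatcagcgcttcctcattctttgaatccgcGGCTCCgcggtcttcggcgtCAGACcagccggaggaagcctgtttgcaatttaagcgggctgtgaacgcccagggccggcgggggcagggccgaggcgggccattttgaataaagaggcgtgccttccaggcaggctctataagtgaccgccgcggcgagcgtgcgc
The ID1 window held the GGAGCC element at 2 places, in one orientation near its far end and in the other beside the start. The ID2 window held 1 CAGCTG E-box and neither kind of SMAD element, and the ID3 window held 1 SMAD box and 1 of the GGAGCC elements, in reverse complement. No match overlapped another in these windows. Among 35116 RefSeq windows of this length, 38% held the SMAD box, 30.6% GGAGCC, 16.4% GGCGCC and 19.4% an E-box, so such matches are common and are given as a description of the letters only.

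Related members were also compared for stretches that reads could not tell apart, because counting can mix near-identical genes. The longest identical runs between coding sequences were 23 bases for SMAD2 and SMAD3, 21 bases for ID1 and ID2, and 17 bases for SMAD6 and SMAD7.
SMAD2 and SMAD3: ctgaagatcttcaacaaccagga
ID1 and ID2: cagcacgtcatcgactacatc
SMAD6 and SMAD7: gtggagtcccgcggcgg
The runs shared by ID3 with ID1 and with ID2 were 15 bases, and TGFBR1 and TGFBR2 shared 10.

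Reads on genes numbered 15008842 to 18410231 per library, and LOC101927668 itself had 1, 1 and 0 reads in Vector against 231, 270 and 276 in LOC_OE. The epithelial markers KRT8, KRT18, EPCAM and CDX2 were present, 4 of the 8 on the list, whereas CDH1 was at 0 in all libraries and VIL1, KRT19 and LGALS4 were near 0. Their summed level was 39.1 to 41.3 FPKM in Vector and 48.4 to 89.6 FPKM in LOC_OE, the highest being LOC_OE replicate 1 with KRT18 at 67.5. Of the fibroblast, leukocyte, endothelial and erythroid markers, 1 reached a mean of 0.5 FPKM (CD68). LOC_OE replicate 1 stood apart: it lay outside the range of the other 5 libraries at 60.8% of tested genes, against 23.2% to 30.6% for any other library, and at 8 of the 10 members. Its Pearson correlation with the other LOC_OE libraries was 0.962 to 0.967 on log2(FPKM + 1) across genes, against 0.982 between those libraries. FPKM results below for members and pairs that rest on it are therefore given with and without it.

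In the control cells TGFBR1, ID3, ID1 and TGFBR2 had the highest FPKM of the members, and ID2 and the inhibitory SMADs the lowest. FPKM are fragments scaled by exon length and by library size. The Vector mean ± SD (n = 3) ran from 11 ± 0.289 for TGFBR1 to 0.269 ± 0.0588 for SMAD6, a span of 40.8-fold. Behind TGFBR1 came ID3 at 10.1 ± 0.949, ID1 at 8.40 ± 0.658, TGFBR2 at 6.33 ± 0.431 and SMAD4, the common partner of both branches, at 4.39 ± 0.0681. SMAD2, SMAD3, ID2 and SMAD7 followed, at 2.29 ± 0.0919, 2.15 ± 0.147, 0.965 ± 0.136 and 0.838 ± 0.140. The libraries of 3 neighbouring pairs in this order overlapped, namely TGFBR1 with ID3, SMAD2 with SMAD3, and ID2 with SMAD7, and the other neighbours did not. The exon length was the union of all annotated exons, 36366 bases for SMAD2 against 9113 for SMAD3 and 6844 for TGFBR1. In reads SMAD2 was the highest member in every Vector library, at 1545, 1500 and 1622 against 1402, 1362 and 1437 for TGFBR1. The place of SMAD2 in the order therefore depends on the length used.

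**Figure D1:**
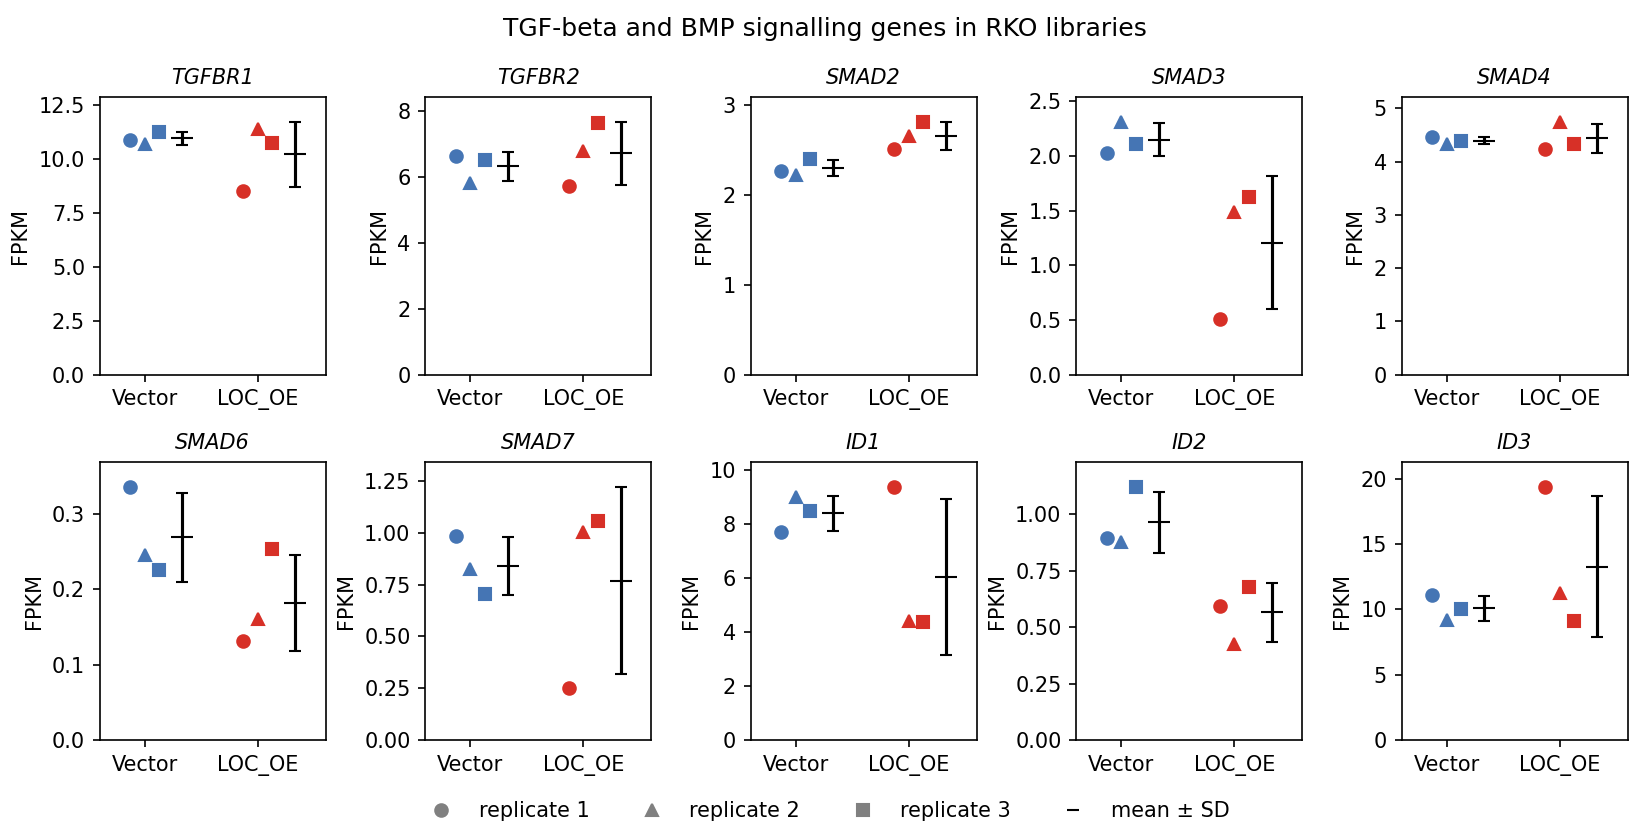
FPKM of the 10 genes in each library (vertical axes from 0, one scale per gene), with Vector in blue, LOC_OE in red, marker shape giving the replicate and bars giving mean ± SD (n = 3). All red points lie above all blue points for SMAD2 and below them for SMAD3 and ID2, and LOC_OE replicate 1 is far from its group for SMAD7, ID1 and ID3.

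None of these genes passed the test for a difference between LOC_OE and Vector over all 6 libraries. SMAD3 and ID2 had the clearest lower values in LOC_OE, and SMAD2 was slightly higher in each LOC_OE library. ID1 was at about the control level in LOC_OE replicate 1 and well below it in the other two. Of the 10, 9 reached 0.5 FPKM in at least 3 libraries and were tested by limma on log2(FPKM + 1), and 0 were called at an adjusted p below 0.05 with a fold change of at least 1.5. Across all 16061 genes tested, 10.2% were called, 4.63% as higher and 5.58% as lower in LOC_OE. Without the fold threshold the count of members stayed 0 against 20.4% of tested genes. At an unadjusted p below 0.05 there were 2 members, SMAD3 and ID2, against 36.5% of tested genes. limma voom on the recovered reads tested all 10 members and also called 0, against 17.4% of the genes it tested. The groups did not overlap for 3 of the 10 members, against 45.3% of tested genes. The median log2 fold change of the 9 was -0.09, with 4 above and 5 below 0, beside 0.02 over all tested genes. A two-sided exact permutation test of 3 against 3 libraries cannot give a p below 0.10, and it gave 0.10 for SMAD2, SMAD3 and ID2. In bulk RNA, fewer cells expressing a gene and less RNA per cell cannot be told apart.

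On the deposited FPKM scale the receptors had similar levels in both groups. TGFBR1, the type I receptor kinase, was at 10.9, 10.7 and 11.3 FPKM in Vector and at 8.53, 11.4 and 10.8 in LOC_OE. LOC_OE replicate 1 was the lowest of the 6 and the other LOC_OE libraries were within or just above the Vector range. The log2 fold change was -0.10 (95% interval -0.38 to 0.17, limma adjusted p = 0.564), and 0.01 without that library. With every library set to the same sum of FPKM, TGFBR1 was at -0.34 (95% interval -0.72 to 0.04, limma adjusted p = 0.166). TGFBR2, the ligand-binding type II receptor, was at 6.64, 5.84 and 6.51 FPKM in Vector and at 5.74, 6.79 and 7.65 in LOC_OE. The groups overlapped, with a log2 fold change of 0.07 (95% interval -0.20 to 0.34, limma adjusted p = 0.694), and the value was -0.16 with every library set to the same sum of FPKM.

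The 2 receptor-regulated SMADs, which share most of their partners, had values in opposite directions. SMAD2 was at 2.26, 2.22 and 2.40 FPKM in Vector and at 2.50, 2.65 and 2.81 in LOC_OE. Every LOC_OE library was above every Vector library, but the gap was small, with a log2 fold change of 0.15 (95% interval -0.05 to 0.35, limma adjusted p = 0.249). The direction of SMAD2 depends on the scale: with every library set to the same sum of FPKM its value became -0.04, a scaling that moved the median of all genes from 0.02 to -0.18 and the calls from 743 higher and 896 lower to 261 and 1787.

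SMAD3 was at 2.02, 2.31 and 2.11 FPKM in Vector and at 0.507, 1.48 and 1.62 in LOC_OE. All LOC_OE libraries were below all Vector libraries, and LOC_OE replicate 1 was far below the rest. In reads these values were 346, 391 and 358 against 74, 217 and 217. The log2 fold change was -0.56 (SE 0.22, 95% interval -1.08 to -0.03, limma adjusted p = 0.120). limma voom on the reads, fitted only with all libraries, gave -1.01 (95% interval -1.84 to -0.18, adjusted p = 0.0710). On FPKM without LOC_OE replicate 1 it was -0.30 (95% interval -0.53 to -0.08, limma adjusted p = 0.0474), a smaller difference with a narrower interval that passed the threshold on p but not that on fold. SMAD4, the common mediator, was at 4.47, 4.33 and 4.38 FPKM in Vector and at 4.23, 4.75 and 4.33 in LOC_OE. Its groups overlapped, its log2 fold change was 0.01 (95% interval -0.18 to 0.20, limma adjusted p = 0.940), and the interval corresponds to 0.884 to 1.15 times the control level on the FPKM + 1 scale. With the same sum of FPKM it was -0.20 (adjusted p = 0.210).

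The inhibitory SMADs were read thinly. SMAD6, which acts mainly on the BMP branch, was at 0.336, 0.245 and 0.226 FPKM in Vector and at 0.131, 0.160 and 0.254 in LOC_OE, from 18 to 54 reads per library. The groups overlapped through LOC_OE replicate 3, and the gene was below the filter for the FPKM test. By limma voom on the reads, fitted only with all libraries, its log2 fold change was -0.60 (95% interval -1.32 to 0.12, adjusted p = 0.189). SMAD7, the feedback inhibitor induced by TGF-beta, was at 0.985, 0.824 and 0.705 FPKM in Vector and at 0.248, 1.00 and 1.05 in LOC_OE. LOC_OE replicate 1 was the lowest of the 6 and the other LOC_OE libraries were the highest. The log2 fold change was -0.09 (95% interval -0.60 to 0.43, limma adjusted p = 0.799) with all libraries and 0.15 without LOC_OE replicate 1 (adjusted p = 0.402), so its direction was set by that library.

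The 3 ID genes differed from one another. ID1 was at 7.69, 9 and 8.50 FPKM in Vector and at 9.37, 4.40 and 4.36 in LOC_OE. LOC_OE replicate 1 was the highest of the 6 libraries, and the other LOC_OE libraries were the lowest, at 87 and 79 reads against 178 to 206 in Vector. With all libraries the log2 fold change was -0.49 (SE 0.26, 95% interval -1.11 to 0.14, limma adjusted p = 0.229). Without LOC_OE replicate 1 ID1 fell by 0.80 on the log2 scale (SE 0.08, 95% interval -0.99 to -0.62, limma adjusted p = 0.00162, 3 against 2 libraries) and was the 1 member called, at 0.522 times the Vector mean, against 10.4% of tested genes called in that fit.

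ID2 was at 0.894, 0.879 and 1.12 FPKM in Vector and at 0.595, 0.424 and 0.679 in LOC_OE. Here LOC_OE replicate 1 lay between the other LOC_OE libraries, and all of them were below all Vector libraries. The log2 fold change was -0.33 (95% interval -0.62 to -0.03, limma adjusted p = 0.107), and it was -0.34 without LOC_OE replicate 1 (adjusted p = 0.110). With library weights it was -0.43 (limma adjusted p = 0.0107), under the fold threshold. The reads behind it were few, 37, 36 and 46 in Vector against 21, 15 and 22 in LOC_OE. limma voom on these reads gave a log2 fold change of -0.77 (95% interval -1.42 to -0.13, adjusted p = 0.0731), a larger change on a scale that does not add 1 to a level near 1.

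ID3 was at 11.1, 9.17 and 9.99 FPKM in Vector and at 19.4, 11.3 and 9.13 in LOC_OE. LOC_OE replicate 1 was the highest of the 6 and replicate 3 the lowest, so the groups overlapped. The log2 fold change was 0.30 (95% interval -0.30 to 0.91, limma adjusted p = 0.427), and 0.01 without LOC_OE replicate 1 (95% interval -0.26 to 0.29). ID1 and ID3 were thus both highest in LOC_OE replicate 1. TGFBR1, TGFBR2, SMAD3, SMAD4, SMAD6 and SMAD7 were all lowest in that library, which lay outside the other 5 at 60.8% of tested genes. A relation between these genes was not tested.

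**Figure D2:**
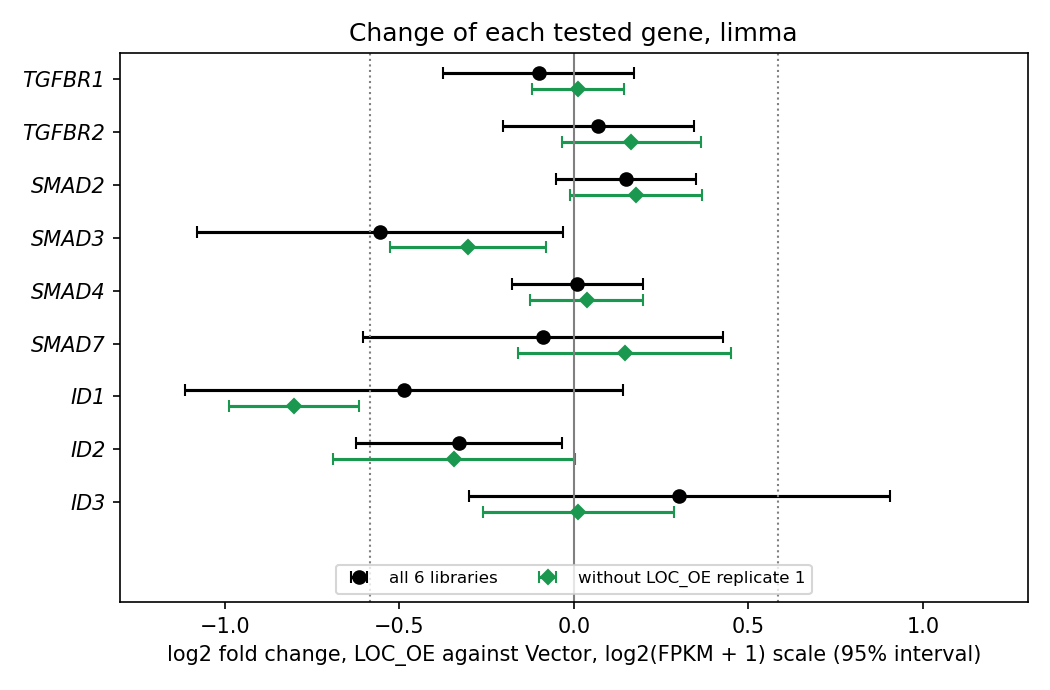
Log2 fold change of LOC_OE against Vector (horizontal axis, log2(FPKM + 1) scale) with its 95% limma interval for the 9 tested genes, over all 6 libraries (black) and without LOC_OE replicate 1 (green), with dotted lines at a fold change of 1.5 in either direction. Leaving out that library moves ID1 from -0.49 to -0.80 with a narrower interval, and ID3 from 0.30 to 0.01.

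Because a library that stands apart can shift 2 related genes together, ratios within 6 related pairs were compared library by library, on log2(FPKM + 1). ID1 relative to ID3 was lower in LOC_OE in every library, replicate 1 included. The log2 ratio of ID1 to ID3 was -0.47, -0.02 and -0.21 in Vector and -0.97, -1.19 and -0.92 in LOC_OE. The groups did not overlap and their means differed by -0.79, with a two-sided exact permutation p = 0.10, the smallest that 3 against 3 allows (0.30 adjusted over the 6 pairs). The ratio of SMAD2 to SMAD3 was 0.11, -0.04 and 0.13 in Vector and 1.22, 0.55 and 0.54 in LOC_OE. It did not overlap either, with a difference of 0.70 and the same exact p of 0.10 (0.30 adjusted). The other 4 pairs differed by -0.17 for TGFBR1 and TGFBR2, -0.01 for SMAD6 and SMAD7, -0.16 for ID1 and ID2, and -0.63 for ID2 and ID3. Their exact permutation p-values ran from 0.2 to 1. Adding 0.1 FPKM in place of 1 gave 1.13 for SMAD2 and SMAD3, -0.88 for ID1 and ID3, and -1.01 for ID2 and ID3. ID1 and ID2 then changed sign to 0.13, with -0.19 for TGFBR1 and TGFBR2 and -0.11 for SMAD6 and SMAD7. Without LOC_OE replicate 1, and with 1 FPKM added, the difference was 0.48 for SMAD2 and SMAD3 and -0.82 for ID1 and ID3. It was then -0.36 for ID2 and ID3, and -0.46 for ID1 and ID2. TGFBR1 and TGFBR2 gave -0.15, and SMAD6 and SMAD7 -0.22. A ratio shows unequal change of 2 genes and does not say which of them moved.

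**Figure D3:**
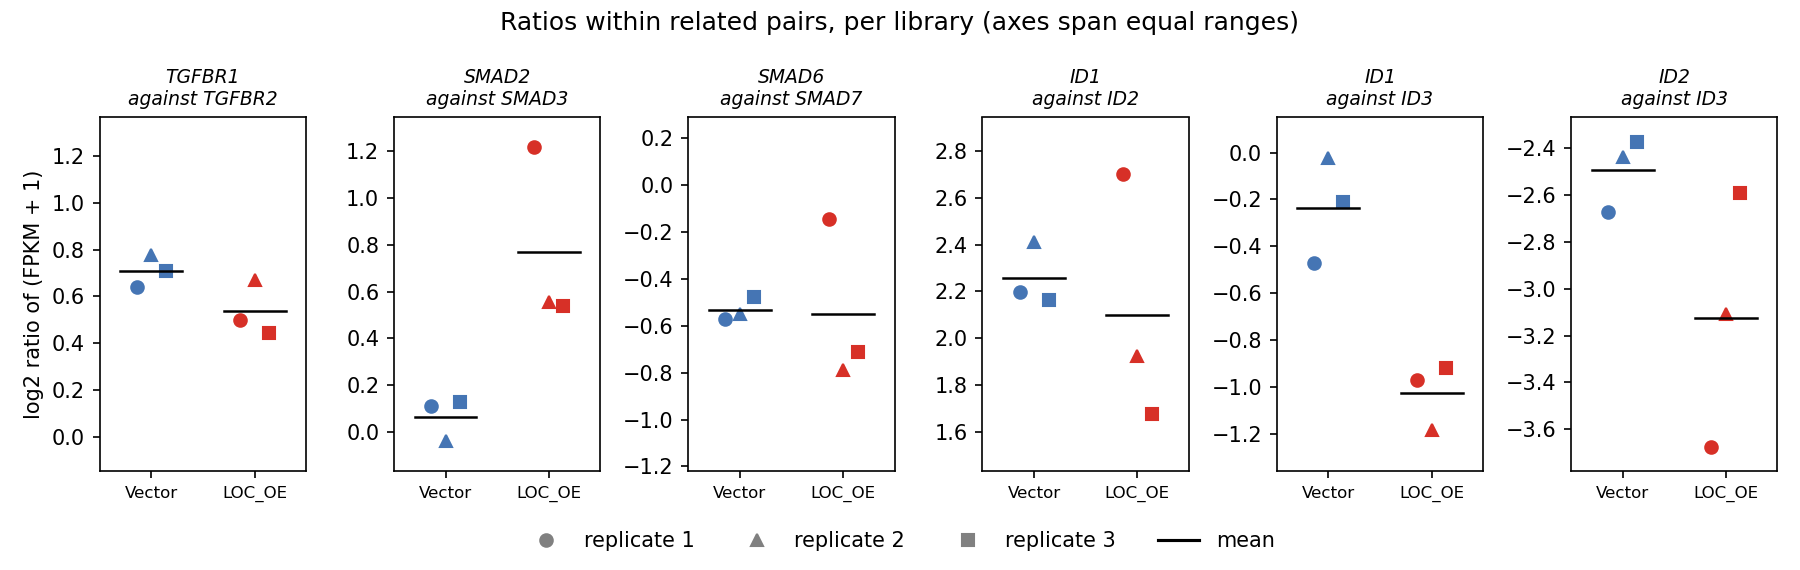
Log2 ratio of (FPKM + 1) within 6 related pairs in each library (vertical axes of equal span), with Vector in blue, LOC_OE in red, marker shape giving the replicate and bars giving the mean. The LOC_OE libraries lie wholly above Vector for SMAD2 against SMAD3 and wholly below for ID1 against ID3.

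The position of ID1 was also described, since levels of genes on 1 chromosome can shift together. The 85 tested genes within 5 Mb of ID1 had a median log2 fold change of -0.27, and the 414 on chromosome 20 a median of -0.17. The corresponding medians around the other members lay between -0.05 and 0.11. Without LOC_OE replicate 1 the ID1 neighbours had a median of -0.32, whereas all tested genes had 0.01. The value for ID1 itself in that fit, -0.80, was larger in size than that of its neighbours, and their part in it was not tested.

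Beyond the 10 members, 143 further pathway genes in 8 lists were looked at. FSTL3, LTBP4, BAMBI, MSX2, CHRD and BMP8A were called lower in LOC_OE, and GADD45B, KLF10, SMURF2 and STRAP higher. BMP8A passed the FPKM filter through the Vector libraries alone. Of the 143, 78 were tested, and 4 were called higher and 6 lower, 12.8% against 10.2% of all tested genes. On FPKM, limma called none of the 10 other receptors and coreceptors tested and none of the 15 other SMADs and SMAD partners. At an unadjusted p below 0.05 it gave 4 of those receptors and 7 of those SMAD partners, beside 36.5% of all tested genes. limma voom on reads, in contrast, called the coreceptor TGFBR3 (log2 fold change -0.94, adjusted p = 0.00771) and the SMAD partner E2F4 (0.63, adjusted p = 0.0360), both tested on FPKM without a call and named here after their values were seen. On FPKM TGFBR3 passed the threshold on p but not that on fold (-0.53, limma adjusted p = 0.0259). E2F4 passed that on fold but not that on p (0.62, limma adjusted p = 0.0650). limma voom also called ACVR1C, a type I receptor below the FPKM filter, which had 26, 26 and 22 reads in the controls and 1, 0 and 5 in LOC_OE (log2 fold change -3.71, 95% interval -5.30 to -2.12, adjusted p = 0.00831), likewise named after its value was seen. ACVR1C entered that fit through the control libraries alone, which favours a lower value in LOC_OE.

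Among ligands and their latent complexes, 1 of 7 tested TGF-beta and activin genes was called, LTBP4, a latent TGF-beta binding protein, which fell from 11.4 ± 0.848 to 6.13 ± 0.988 FPKM (mean ± SD, n = 3 each; log2 fold change -0.80, limma adjusted p = 0.0109). TGFB1, the most abundant of that list, was at 55.6 ± 4.41 and 64.7 ± 15.6 FPKM and was not called (adjusted p = 0.458). Of the 2 tested BMP and GDF ligands, BMP8A was called lower (log2 fold change -0.59, adjusted p = 0.0359), and its value is uncertain because BMP8B is a near-identical gene that can share its reads. BMP8A was at 1.07, 0.668 and 1.18 FPKM in Vector and at 0.221, 0.369 and 0.322 in LOC_OE. It thus met the filter of 0.5 FPKM through Vector alone, which favours a lower value in LOC_OE. BMP8B was at 3.70 ± 0.178 and 3.29 ± 0.883 FPKM. Both calls are fragile: LTBP4 had an adjusted p of 0.0539 without Vector replicate 1 and 0.0639 without Vector replicate 2, and BMP8A lost its call whichever library was left out (adjusted p 0.0477 to 0.123, and without LOC_OE replicate 1 a log2 fold change of -0.54). It was also lost with quantile normalization (-0.42), library weights (-0.49) and no filter on low FPKM (adjusted p = 0.0620).

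Among 4 tested extracellular inhibitors 2 were called, both lower. FSTL3, a secreted protein that binds activins, was at 5.42, 4.88 and 5.54 FPKM in Vector and at 1.43, 1.97 and 1.82 in LOC_OE. The groups were far apart, with a log2 fold change of -1.20 (SE 0.11, limma adjusted p = 0.00374). CHRD, the BMP antagonist chordin, fell by 0.60 (adjusted p = 0.0400), a call lost whichever library was left out (adjusted p 0.0173 to 0.140, and without LOC_OE replicate 1 a log2 fold change of -0.45). It was also lost with a pseudocount of 0.1 (adjusted p = 0.0596), no filter on low FPKM (adjusted p = 0.101), quantile normalization (-0.48) and library weights (-0.46). FSTL3 kept its call in all 6 of these fits. TWSG1, a modulator of chordin and BMPs and the highest of the list by its mean over the 6 libraries, was at 18.6 ± 1.17 and 26.6 ± 1.37 FPKM, with an adjusted p of 0.0143 but a log2 fold change of 0.49, under the fold threshold.

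Intracellular regulators were called in both directions, 2 higher and 1 lower of 25 tested. BAMBI, a decoy receptor that lacks the kinase, was at 3.16, 2.86 and 3.09 FPKM in Vector and at 1.51, 1.29 and 1.35 in LOC_OE, with no overlap (log2 fold change -0.76, limma adjusted p = 0.00645). SMURF2, a ubiquitin ligase that directs receptors and SMADs to degradation, rose from 64.4 ± 2.72 to 109 ± 13.3 FPKM (0.75, adjusted p = 0.0101). STRAP, a protein that binds SMAD7 and the receptors, rose from 98.6 ± 4.38 to 158 ± 34.3 FPKM (0.65, adjusted p = 0.0330). Leaving out any Vector library ended the call of SMURF2 (adjusted p 0.0512 to 0.0639), as did quantile normalization (0.46, adjusted p = 0.116) and equal FPKM sums for all libraries (0.49, adjusted p = 0.0593). Of the fits that left out 1 library, STRAP kept its call only in that without LOC_OE replicate 3, with a log2 fold change of 0.48 without LOC_OE replicate 1 and an adjusted p of 0.0539 to 0.120 without any other library. STRAP was also under the fold threshold with the same sum of FPKM (0.39), quantile normalization (0.32) and library weights (0.49), and had an adjusted p of 0.0700 with no filter on low FPKM.

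Of 13 TGF-beta and BMP responsive genes tested on FPKM, 2 were called higher and 1 lower. GADD45B rose from 4.76 ± 0.501 to 11 ± 2.17 FPKM (log2 fold change 1.05, limma adjusted p = 0.00909). KLF10, also known as TGF-beta inducible early gene, rose from 20.7 ± 1.64 to 38.1 ± 3.81 FPKM (0.85, adjusted p = 0.00705). MSX2, a homeobox gene induced by BMPs, fell from 4.54 ± 0.194 to 2.61 ± 0.293 FPKM (-0.62, adjusted p = 0.00991). Without Vector replicate 2 GADD45B had an adjusted p of 0.0573 and MSX2 of 0.0633, and without Vector replicate 3 MSX2 had 0.0539, all just past the threshold. Quantile normalization took MSX2 to -0.56, under the fold threshold. TCF3, one of the E proteins that ID proteins bind, was at 23.0 ± 0.857 and 24.3 ± 6.04 FPKM (adjusted p = 0.846). RGMB, a BMP coreceptor, and TRIM28, a corepressor, were the most abundant genes of their lists and were not called (adjusted p = 0.303 and 0.667).

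**Figure D4:**
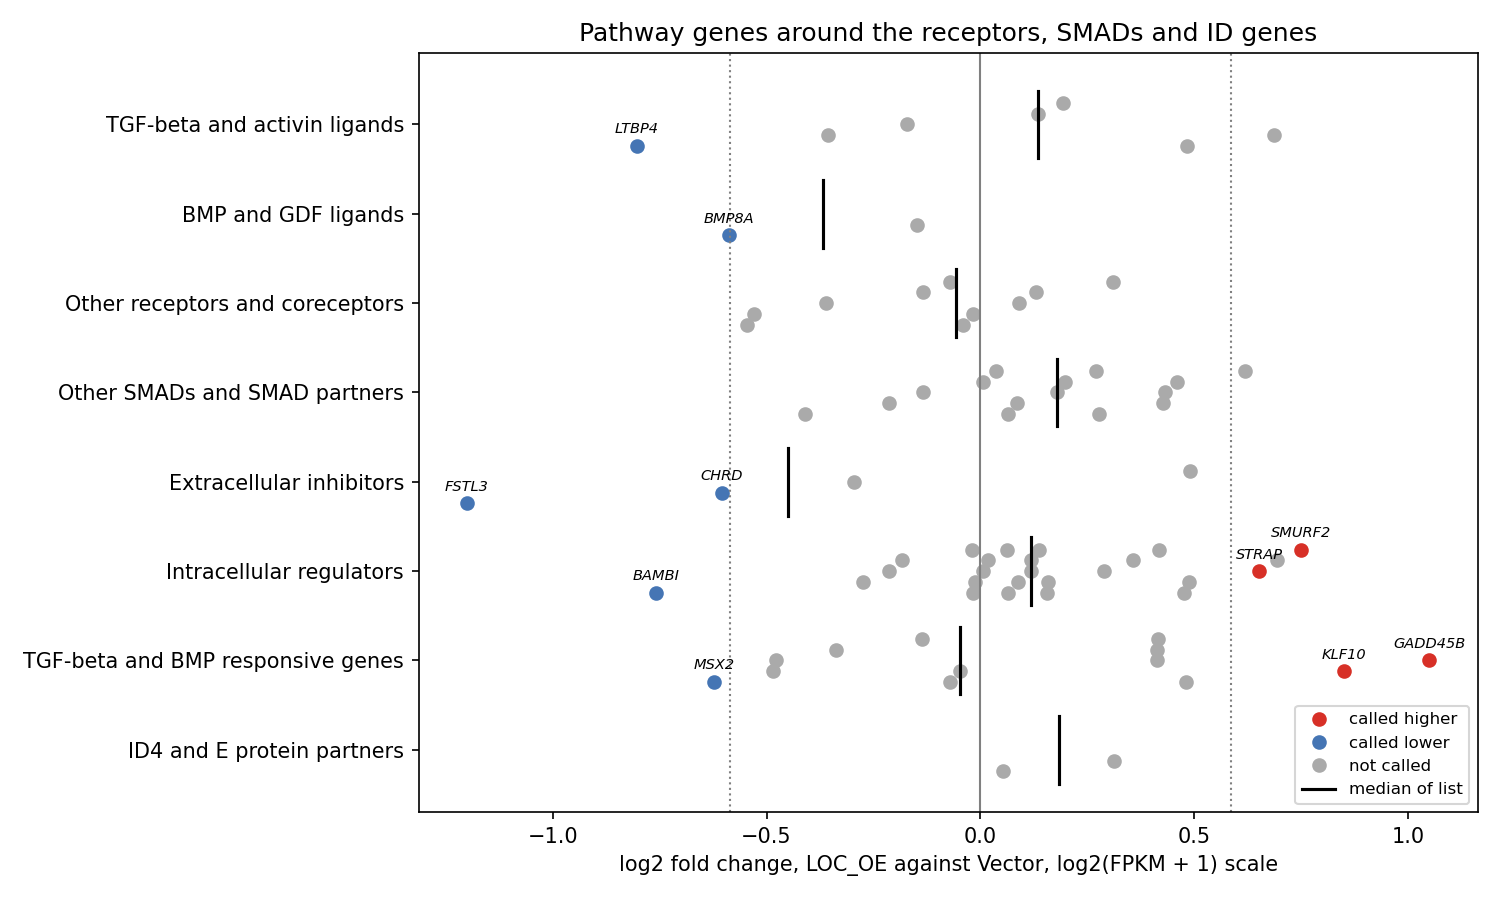
Log2 fold change of LOC_OE against Vector (horizontal axis, log2(FPKM + 1) scale) for the 78 tested pathway genes in 8 lists, with called genes coloured and named, black bars at list medians and dotted lines at a fold change of 1.5. The 4 genes called higher were SMURF2, STRAP, KLF10 and GADD45B, and no other receptor or SMAD partner was called in this FPKM test.

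Calls among low-level pathway genes depended on the test. limma voom on reads called 6 pathway genes higher and 14 lower of 86 tested, 23.3% against 17.4% of all genes in that fit, and 10 of these were the ones called on FPKM. A further 5 were below the FPKM filter, all lower: the receptor ACVR1C described above, the ligands BMP2, BMP4 and GDF9, and the responsive gene CTGF, named here after their values were seen. All 5 met the limma voom filter, 10 reads in at least 3 libraries, through the Vector libraries alone. Entry by that route favours lower values in LOC_OE, so their shared direction is not a result. For BMP2 the Vector libraries held 36, 22 and 16 reads, against 4, 4 and 2 after overexpression (log2 fold change -2.42, adjusted p = 0.0127). The reads of BMP4 fell from 51, 20 and 35 to 5, 2 and 7 (-2.59, adjusted p = 0.0169). Both were lower in all 3 LOC_OE libraries than in any control library, and their relation to the ID genes was not tested. GDF9, a growth factor best known from the oocyte, had 16, 16 and 10 reads against 3, 3 and 2 (-1.92, adjusted p = 0.0173). CTGF had 16, 26 and 22 reads against 2, 1 and 6 (-2.64, adjusted p = 0.0137). Another 5 were tested on FPKM without a call, among them TGFBR3 and E2F4 described above. Of the others, the responsive genes PMEPA1 (-1.51, limma voom adjusted p = 0.0158) and CDKN2B (-0.69, adjusted p = 0.0366) were lower. The ligand gene INHBE was higher (1.44, adjusted p = 0.00800). These were also named after their values were seen.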

How the data were processed

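Expression was measured by RNA sequencing of 3 Vector and 3 LOC_OE libraries of RKO cells. The authors deposited 1 table of FPKM values per gene, and the submitters' processing notes name HISAT2 2.0.4, StringTie 1.3.0 and the hg38 build; the annotation is not given in the sources used here. All 58735 gene IDs matched GENCODE release 29. FPKM multiplied by exon length and by a library size found from the values themselves gave whole reads for 100% of values (tolerance 0.05 reads). In all, 0 columns were left unused. This library size was above the reads on genes in every Vector library and below them in every LOC_OE library. Its definition is not given in the sources used here. Summed FPKM per library were 264150 to 280648 in Vector and 305702 to 360434 in LOC_OE. Genes at 0.5 FPKM or more in at least 3 libraries were tested with limma 3.58.1 in R 4.3.3 (linear model on log2(FPKM + 1), variance trend, Benjamini-Hochberg adjustment over 16061 genes); fold changes on this scale understate those of low genes. limma voom on genes with 10 reads or more in at least 3 libraries was an alternative. It used the same library sizes, so it shares their scaling. Both were run on simulated reads with the same dispersion for all genes and no library standing apart. That simulation does not cover a library like LOC_OE replicate 1. Single values were compared by exact permutation. Plots used matplotlib 3.10.9 (python 3.11.15).

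The members and the gene lists were chosen with earlier results of these data known. Named genes were the 10 members, LOC101927668, and for each list every called gene and the gene of highest mean. The gene of highest mean in 1 list is not reported here. Promoter windows came from RefSeq, and all 10 members matched. Alternatives were another pseudocount, filter or scaling, library weights, a replicate block and leaving out each library. Replicate numbers were not used to pair libraries, because the titles do not state a pairing. Same-numbered deviations from the group means correlated at 0.11, -0.03 and 0.12.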

Additional observations from a re-analysis of the deposited data

How the results depend on the processing

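Over all alternatives, 0 members were called higher. The count of members called lower, 0 with all libraries weighted equally, became 1 (ID1) with library weights. It ranged from 0 to 1 when 1 library was left out. Where 1 member was called, LOC_OE replicate 1 had less or no influence. With library weights SMAD3 (-0.36, limma adjusted p = 0.0137) and ID2 (-0.43, limma adjusted p = 0.0107) also passed the threshold on p but not that on fold. The called pathway genes, 4 higher and 6 lower, became 2 and 10 with every library set to the same sum of FPKM. The higher calls were 9 with library weights and 11 without a fold threshold, and the lower calls 14 by limma voom. Leaving out 1 library gave 1 to 8 higher and 2 to 6 lower. The fewest calls came without Vector replicate 2 (1 higher, 2 lower), where all genes gave 371 calls against 1639, and 8 higher came without LOC_OE replicate 1. Some members without a call changed sign. With the same sum of FPKM TGFBR2 was at -0.16, SMAD2 at -0.036 and SMAD4 at -0.20. Other members kept their sign on that scale. ID1 was at -0.72 (limma adjusted p = 0.0524), SMAD3 at -0.70 (adjusted p = 0.0749) and ID2 at -0.44 (adjusted p = 0.0542), further from 0 but not called. ID3 moved towards 0, to 0.061. With library weights TGFBR1 was at 0.039 and SMAD7 at 0.13, and quantile normalization gave 0.061 for SMAD7. Leaving out 1 library gave -0.18 to 0.013 for TGFBR1, -0.016 to 0.17 for TGFBR2, -0.031 to 0.037 for SMAD4 and -0.21 to 0.15 for SMAD7. The cause of these shifts was not tested beyond the construction of each alternative. FSTL3, BAMBI and KLF10 had an adjusted p below 0.05 in all 6 fits that left out a library. With a replicate block, 0 members were called in either direction, 5 pathway genes were called higher and 4 lower, and BMP8A and CHRD were not called (adjusted p = 0.0780 and 0.0564). The labels tie the numbers to no shared batch. Replicates 1 and 3 correlated best with their own number, though weakly, and replicate 2 did not. Members with under 60 reads per library, SMAD6 and ID2, allow only large differences to be seen. The values without LOC_OE replicate 1 around ID1 were added after seeing the data.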
